A study of Mus musculus with 24 samples.

Results

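Bone morphogenetic protein (BMP) signalling was followed through 9 genes: the ligands Bmp2, Bmp3, Bmp4 and Bmp6, the tolloid protease gene Bmp1, and the secreted antagonists Grem1, Nog, Chrd and Fst. They were chosen by symbol, with earlier results of these data known, and all 9 were matched among the 54232 Ensembl gene IDs of the deposited count files. The study sorted day 7 bone marrow stromal cultures, grown in MEM-alpha medium supplemented with 10% FBS and Penstrep at 1%, from female C57BL/6 mice of 6 to 8 weeks into CD45-Sca1+ cells, called mesenchymal, and CD45+Sca1+ cells, called hematopoietic. The 4 groups were CBM Mesenchymal (Sh3bp2KI/KI), WT Mesenchymal (wild type), CBM Hematopoietic (Sh3bp2KI/KI) and WT Hematopoietic (wild type), with 6 libraries each and 24 in all. The series names the Sh3bp2KI/KI mouse as a model of cherubism, an inherited disorder of the jaw bones. What the knock-in allele alters is not in the labels. Nor do they tell whether the 6 libraries of a group are separate animals or cultures, and each p-value therefore reflects the spread among these libraries, which may be technical.

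Total counts ran between 9875390 and 15826711 per library, with a mean of 13357727 ± 1573115 (SD, n = 24). Ptprc, which encodes CD45, averaged 3.13 ± 2.01 CPM (counts scaled to library size) in CBM Mesenchymal, 2.98 ± 1.86 CPM in WT Mesenchymal, 749 ± 83.0 CPM in CBM Hematopoietic and 793 ± 71.3 CPM in WT Hematopoietic libraries (SD, n = 6 each). Ly6a, which encodes Sca1, had group means between 9.99 and 12.1 CPM. Both gates were Sca1+, and without a Sca1-negative group these values do not check that sorting. Sh3bp2 was counted in all groups and did not differ by genotype in mesenchymal (adjusted p = 0.897) or hematopoietic libraries (adjusted p = 0.448), so its level does not check the genotype labels. The hematopoietic libraries also held stromal marker counts. The 22 stromal markers summed to 3432 to 17160 CPM in CBM Hematopoietic and 3562 to 15980 CPM in WT Hematopoietic libraries, against 54350 to 86710 CPM in CBM Mesenchymal and 45730 to 73390 CPM in WT Mesenchymal libraries.

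BMPs are secreted dimers of the TGF-beta superfamily that bind type I and type II receptor kinases and signal through SMAD1, SMAD5 and SMAD9, inducing targets such as the Id genes. In bone marrow stroma, BMP2, BMP4 and BMP6 drive osteoblast differentiation, whereas BMP3 opposes it. Gremlin-1, noggin, chordin and follistatin bind ligands outside the cell, follistatin with a preference for activins, and BMP1 is a metalloprotease that cleaves chordin and procollagens and is not itself a BMP ligand.

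Promoters were looked at because Grem1 and Bmp4 changed in opposite directions. RefSeq promoter windows on GRCm38.p6, 250 bases before to 50 after the start, were matched for 4 of the 9 genes. The windows of Grem1 (chr2:113758599-113758898, minus strand) and Bmp4 (chr14:46390620-46390919, minus strand) are shown 5′ to 3′, with matches to the searched motifs in capitals.

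Grem1: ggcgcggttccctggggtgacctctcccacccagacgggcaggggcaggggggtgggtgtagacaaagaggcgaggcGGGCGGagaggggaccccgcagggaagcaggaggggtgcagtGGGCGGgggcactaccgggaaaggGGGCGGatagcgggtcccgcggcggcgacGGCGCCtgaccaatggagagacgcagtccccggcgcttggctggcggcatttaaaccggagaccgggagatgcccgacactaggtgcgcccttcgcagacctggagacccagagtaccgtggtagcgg

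Bmp4: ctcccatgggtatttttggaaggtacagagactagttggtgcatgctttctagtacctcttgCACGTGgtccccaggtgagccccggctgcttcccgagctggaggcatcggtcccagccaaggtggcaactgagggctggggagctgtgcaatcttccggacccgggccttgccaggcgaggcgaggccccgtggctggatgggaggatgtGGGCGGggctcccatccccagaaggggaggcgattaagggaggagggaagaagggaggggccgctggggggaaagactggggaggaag

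Of 7 motifs searched on both strands, the Grem1 window held 1 GC-rich SMAD motif GGCGCC, found in 11.9% of 32851 promoter windows of the same length, and 3 GC boxes GGGCGG, found in 35.7%. The Bmp4 window held 1 E-box CACGTG, found in 7.15%, and 1 GC box. G and C made up 70.7% of the Grem1 window and 64.0% of the Bmp4 window, against a median of 52.7% over all windows. The palindromic SMAD motif GTCTAGAC (0.213% of windows), the RUNX motif TGTGGT (16.8%), the AP-1 motif TGANTCA (7.81%) and TATAAA (13.6%) were in neither window. The Bmp6 window held 1 E-box and 1 GC box, and the Chrd window held 1 GC-rich SMAD motif and 4 GC boxes, 2 of them 5 bases apart and sharing 1 base. These matches describe letters and not bound sites.

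Between genotypes in mesenchymal cells, the antagonist Grem1 was higher in CBM libraries, and the ligands Bmp2 and Bmp4 and the antagonist Fst were lower. Genes were tested with the quasi-likelihood test of edgeR, p-values were adjusted over all genes tested (Benjamini-Hochberg), and the threshold was 0.05. The low-count filter kept 8 of the 9 genes and left out Nog. Of the 8, 1 was higher and 3 were lower, and the libraries of the 2 genotypes did not overlap for these 4. Across the 13867 genes tested, 7.27% were called (3.44% higher and 3.83% lower), and 4.14% had no overlap between the 6 CBM and 6 WT libraries. In bulk libraries, fewer cells expressing a gene and less RNA per cell cannot be told apart.

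**Figure D1:**
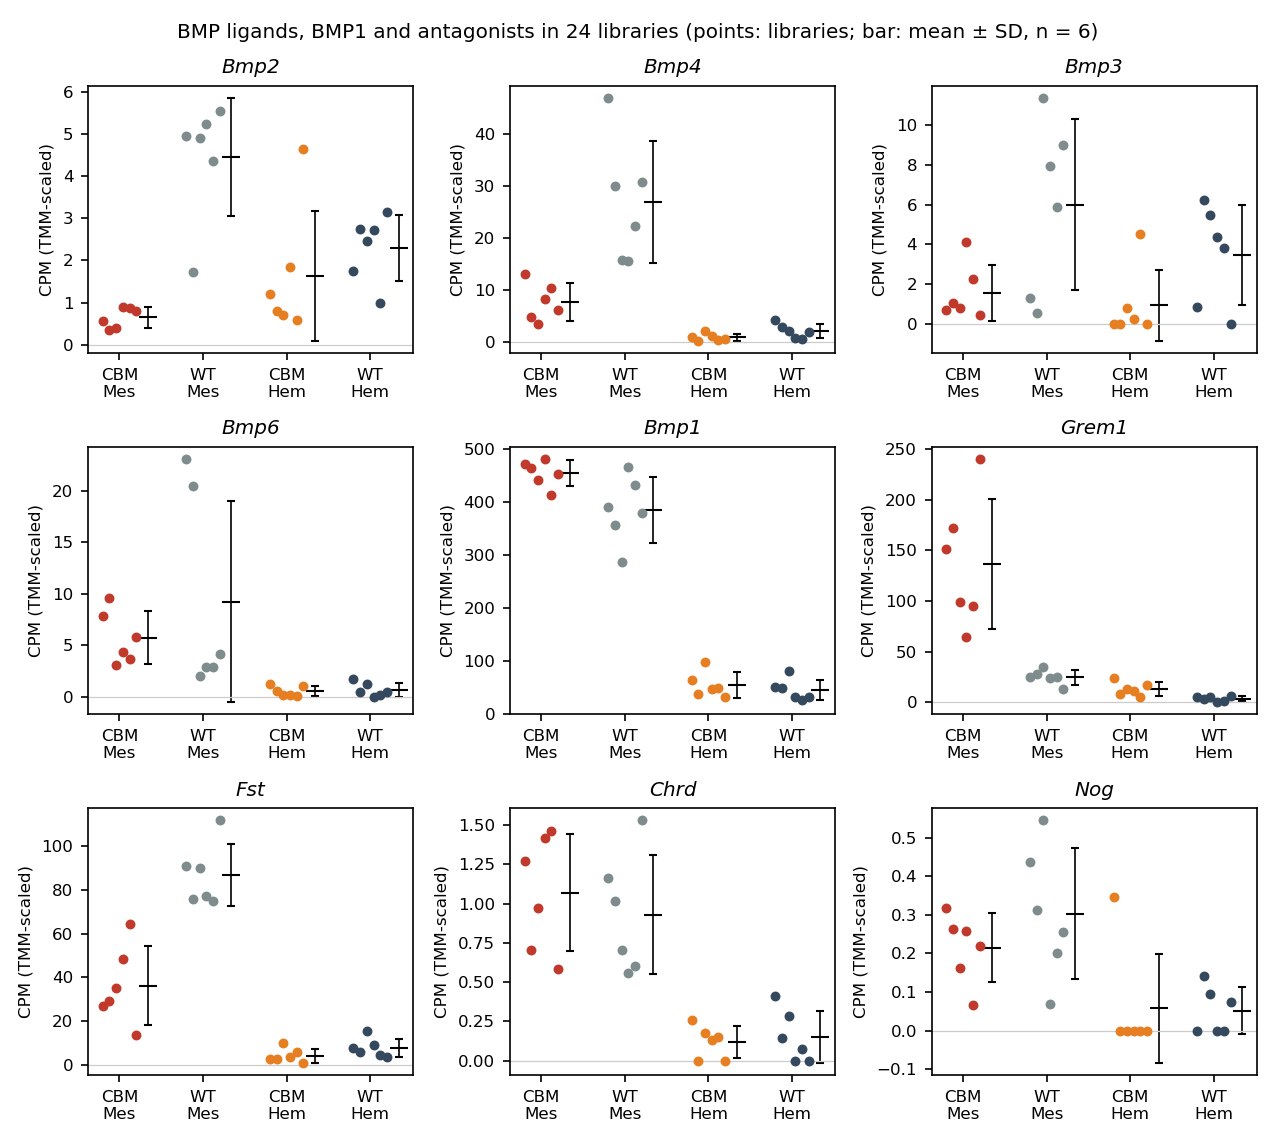
TMM-scaled CPM of each gene (linear axes that differ between panels) in CBM Mesenchymal, WT Mesenchymal, CBM Hematopoietic and WT Hematopoietic libraries; points are libraries and bars the mean ± SD (n = 6). The CBM and WT Mesenchymal points of Bmp2, Bmp4, Grem1 and Fst do not overlap.

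Among the ligands, Bmp2 (ENSMUSG00000027358, chr2:133552159-133562885 on GRCm38, plus strand) differed most. Its level had a lowest, median and highest value of 0.352, 0.680 and 0.904 CPM in CBM Mesenchymal libraries, from 4 to 14 counts, against 1.72, 4.93 and 5.55 CPM in WT Mesenchymal libraries, from 22 to 87 counts. All 6 CBM libraries lay below the lowest WT library, which was replicate 2 and stood apart from the other WT libraries. Bmp2 passed the low-count filter through its WT libraries. The log2 fold change was -2.78 (SE 0.29, adjusted p = 0.000135), and it was -3.11 and -2.53 within the 2 sets of deposited files.

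Bmp4 (ENSMUSG00000021835, chr14:46383520-46390669, minus strand), a close relative of Bmp2 that shares its receptors, was the highest of the 4 ligands among the 9 genes in level per exon length in mesenchymal libraries. It had 3.57, 7.23 and 13.1 CPM in CBM Mesenchymal libraries, against 15.7, 26.2 and 46.9 CPM in WT Mesenchymal libraries (lowest, median, highest). The highest CBM library stayed below the lowest WT library. On the log2 scale CBM differed from WT by -1.77 (SE 0.36, adjusted p = 0.0123). Within file sets of 3 against 3 libraries it was -2.11 (adjusted p = 0.148) and -1.46 (adjusted p = 0.0852), so the call did not hold within either set. Its opposite-strand exon partner Gm15217 had no counts in any library.

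Bmp3 (ENSMUSG00000029335, chr5:98854415-98884396, plus strand) encodes the ligand that opposes bone formation in mice. It had 0.438, 0.933 and 4.13 CPM in CBM Mesenchymal libraries, against 0.546, 6.92 and 11.4 CPM in WT Mesenchymal libraries. The groups overlapped, since WT replicates 1 and 2 were at 1.31 and 0.546 CPM while the other WT libraries were between 5.89 and 11.4 CPM. The log2 fold change of -1.98 (SE 0.66) did not pass the test (adjusted p = 0.0958), although it passed without WT Mesenchymal replicate 2 (-2.17, adjusted p = 0.0457) and with DESeq2 (-2.02, adjusted p = 0.0368).

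Bmp6 (ENSMUSG00000039004, chr13:38345107-38500302, plus strand), known also as an inducer of hepatic hepcidin, had 3.08, 5.08 and 9.58 CPM in CBM Mesenchymal libraries, against 2.03, 3.54 and 23.1 CPM in WT Mesenchymal libraries. WT replicates 1 and 2 alone held 23.1 and 20.4 CPM, and the other 4 WT libraries were at 2.03 to 4.15 CPM. The log2 fold change was -0.38 (SE 0.53, adjusted p = 0.733). It was -1.16 in the file set that holds WT replicates 1 and 2, and 0.48 in the other set, so its direction turned. Within each genotype, replicates 1 and 2 also held the highest summed endothelial markers, 111.7 and 106 CPM in CBM and 62.8 and 52.3 CPM in WT Mesenchymal libraries. With that sum as a covariate the log2 fold change of Bmp6 was -0.70 (adjusted p = 0.576). Of 6 tested endothelial markers 0 passed the test between genotypes, but their median log2 fold change was 0.797, against 0.001 over all genes. The part of endothelial cells in the Bmp6 levels was not tested. An opposite-strand exon of Txndc5 shares 224 bases with Bmp6 and that gene had 3575 to 5997 counts in CBM and 3721 to 5484 in WT Mesenchymal libraries, so Bmp6 counts are uncertain where counting did not use strand.

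Bmp1 (ENSMUSG00000022098, chr14:70474558-70520234, minus strand), the procollagen C-proteinase, was the most abundant of the 9 per exon length in every group. It had 413, 459 and 481 CPM in CBM Mesenchymal libraries, against 287, 385 and 467 CPM in WT Mesenchymal libraries. The groups overlapped, and the log2 fold change of 0.25 (SE 0.10) did not pass the test (adjusted p = 0.135).

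Grem1 (ENSMUSG00000074934, chr2:113746164-113758646, minus strand) encodes gremlin-1, which binds BMP2, BMP4 and BMP7. It had 64.6, 125 and 240 CPM in CBM Mesenchymal libraries, from 1001 to 3290 counts, against 12.8, 24.9 and 35.2 CPM in WT Mesenchymal libraries, from 201 to 452 counts. The lowest CBM library was above the highest WT library. CBM was 5.60-fold higher, or 2.49 on the log2 scale (SE 0.32, adjusted p = 0.00104). Within the 2 file sets it was 2.27 (adjusted p = 0.00408) and 2.70 (adjusted p = 0.115).

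Fst (ENSMUSG00000021765, chr13:114452290-114458951, minus strand), which encodes follistatin, had 13.7, 32.1 and 64.3 CPM in CBM Mesenchymal libraries, against 75.0, 83.4 and 111.8 CPM in WT Mesenchymal libraries. The groups did not overlap, and the CBM libraries varied more among themselves (SD 17.8 CPM) than the WT libraries (SD 14.2 CPM) around a lower mean. The difference on the log2 scale was -1.26 (SE 0.29, adjusted p = 0.0225). This call was lost without WT Mesenchymal replicate 6 (adjusted p = 0.0554), without CBM Mesenchymal replicate 1 (adjusted p = 0.0612) or replicate 2 (adjusted p = 0.0549), without the filter on low counts (-1.27, adjusted p = 0.0774), and in 1 of the 2 file sets (-1.50, adjusted p = 0.00178, and -1.04, adjusted p = 0.486). Its antisense gene Gm47040 had at most 9 counts in any library.

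Chrd (ENSMUSG00000006958, chr16:20733127-20742384, plus strand), which encodes the chordin cleaved by BMP1, had few counts, 8 to 22 in CBM and 8 to 24 in WT Mesenchymal libraries. It had 0.584, 1.12 and 1.46 CPM in CBM Mesenchymal libraries, against 0.557, 0.857 and 1.53 CPM in WT Mesenchymal libraries. The groups overlapped almost fully, and the log2 fold change was 0.21 (SE 0.35, adjusted p = 0.773). Chrd shares 239 exon bases with the opposite-strand gene Thpo, which had at most 12 counts in a library, as many as some libraries held for Chrd.

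Nog (ENSMUSG00000048616, chr11:89300638-89302332, minus strand), which encodes noggin, had 17 counts in all CBM Mesenchymal and 25 in all WT Mesenchymal libraries together, at 1 to 4 counts per CBM and 1 to 7 counts per WT library. Nog did not pass the low-count filter, and in the fit without it the log2 fold change was -0.41 (SE 0.70, adjusted p = 0.820).

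**Figure D2:**
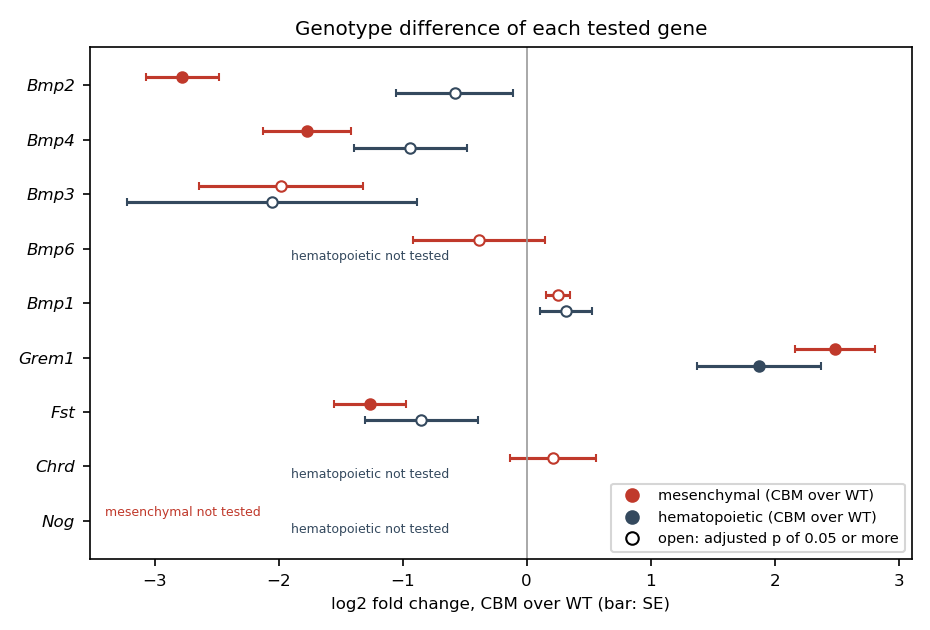
log2 fold change of CBM over WT for each gene, with its SE, in mesenchymal and hematopoietic libraries; filled points have an adjusted p under 0.05. In mesenchymal libraries Grem1 is filled at 2.49, and Bmp2, Bmp4 and Fst are filled at -2.78, -1.77 and -1.26.

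Other cell markers moved with these mesenchymal differences. Of 6 osteoblast lineage markers tested of 8 listed, 5 were lower in CBM libraries. The list summed to 678 to 1354 CPM in CBM Mesenchymal libraries, against 1504 to 3388 CPM in WT Mesenchymal libraries, and none of its genes was at 0. With this sum as a covariate, none of the 9 genes was called: Bmp2 was at -1.98 (adjusted p = 0.139), Bmp4 at -2.12 (adjusted p = 0.231), Grem1 at 1.64 (adjusted p = 0.287) and Fst at -0.48 (adjusted p = 0.700). The sum does not overlap between the genotypes, so it and genotype cannot be told apart. Of 4 adipocyte markers tested of 7 listed, 3 were lower in CBM libraries, where the list summed to 40.4 to 158 CPM with Cidec and Lep at 0, against 104 to 323 CPM in WT libraries with Lep at 0, and their part in the result was not tested. Of 4 osteoclast markers tested of 8 listed, 2 were higher in CBM libraries, both without overlap: Acp5 (3.60, adjusted p = 0.00641) and Atp6v0d2 (3.92, adjusted p = 0.00528). The osteoclast list summed to 196 to 400 CPM in CBM and 173 to 339 CPM in WT Mesenchymal libraries, with none at 0, and its part in the result was not tested. Leukocyte markers, 0 of 13 called, summed to 40.5 to 166 CPM in CBM and 41.2 to 110.7 CPM in WT Mesenchymal libraries, and with that sum as a covariate the count of 4 called genes was the same.

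In level per kilobase of exon, the 9 genes were ordered differently in the 2 genotypes. In CBM Mesenchymal libraries Bmp1 led at 51.2 ± 2.75 CPM per kb, followed by Grem1 at 33.0 ± 15.5, Fst at 7.90 ± 3.88, Bmp4 at 3.44 ± 1.60 and Bmp6 at 1.47 ± 0.656 CPM per kb (SD, n = 6). Bmp3, Bmp2, Chrd and Nog followed there at 0.212, 0.182, 0.171 and 0.127 CPM per kb and did not differ beyond their spread. In WT Mesenchymal libraries the order was Bmp1 at 43.5 ± 7.03, Fst at 18.9 ± 3.10, Bmp4 at 11.98 ± 5.24, Grem1 at 6.00 ± 1.74, Bmp6 at 2.37 ± 2.50 and Bmp2 at 1.25 ± 0.393 CPM per kb. Grem1 thus came after Bmp1 alone in CBM Mesenchymal libraries, and after Bmp1, Fst and Bmp4 in WT Mesenchymal libraries. From Fst down, neighbours in the WT order overlapped within 1 SD.

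Grem1 over the sum of the ligands Bmp2, Bmp4 and Bmp6, each in CPM per kb, was 7.16 ± 3.91 in CBM Mesenchymal libraries and 0.473 ± 0.289 in WT Mesenchymal libraries (SD, n = 6 each). The ratio ran from 3.07 to 13.01 in CBM and from 0.189 to 0.950 in WT Mesenchymal libraries, without overlap. Every CBM Mesenchymal library thus held more Grem1 than summed Bmp2, Bmp4 and Bmp6 transcript per length, and every WT Mesenchymal library held less. Bmp5 is left out of this sum. It averaged 33.1 ± 7.38 CPM in CBM and 57.7 ± 14.8 CPM in WT Mesenchymal libraries (SD, n = 6 each). Its level per length was not computed, so how Grem1 stands to all BMP ligands together is not known. In hematopoietic libraries the same ratio was 3.29 ± 1.204 in CBM and 0.497 ± 0.242 in WT, again without overlap. The ratio joins genes already described, with Grem1 called higher and Bmp2 and Bmp4 called lower in CBM Mesenchymal libraries. Its separation is therefore not further support for a genotype difference, and the ratio is given without a test. Grem1 by itself overlapped between genotypes in hematopoietic libraries, which also held stromal marker counts. The part of stromal RNA in the hematopoietic ratio was not tested.

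**Figure D3:**
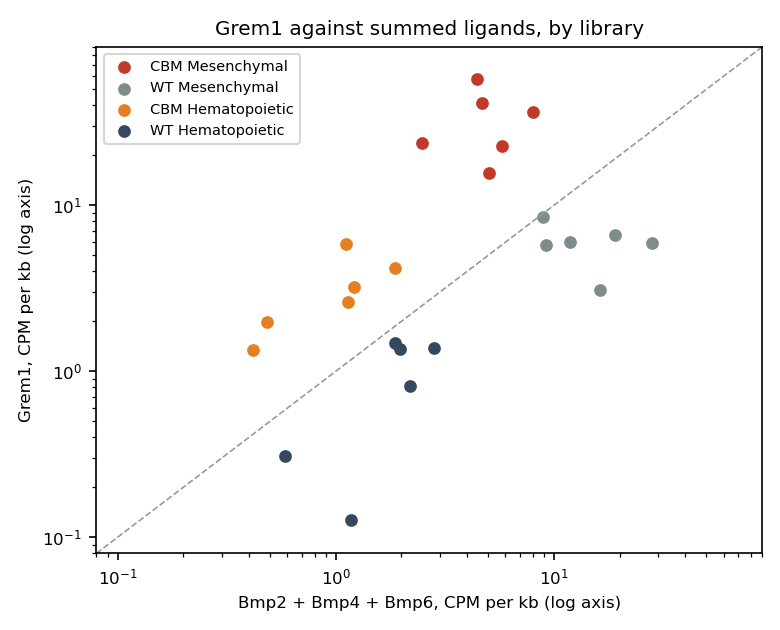
Grem1 level against the summed level of Bmp2, Bmp4 and Bmp6 in each library, both in CPM per kb on log axes; the dashed line marks equal levels. All 12 CBM libraries lie above the line and all 12 WT libraries below it. Bmp5 and other ligands are not in the sum.

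In the hematopoietic libraries the low-count filter kept 6 of the 9 genes and left out Bmp6, Nog and Chrd. Grem1 was higher in CBM, none was lower and the other 5 did not pass, against a background of 15.9% called over 14030 genes (9.01% higher and 6.89% lower). None of the 6 genes had groups without overlap, against 7.8% of all genes.

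Grem1 had 5.56, 12.03 and 24.4 CPM in CBM Hematopoietic libraries, against 0.529, 4.53 and 6.12 CPM in WT Hematopoietic libraries. Only the lowest CBM library reached into the WT range. On the log2 scale the difference was 1.87 (SE 0.50, adjusted p = 0.0243). The call was lost without WT Hematopoietic replicate 2 (adjusted p = 0.0534), without CBM Hematopoietic replicate 1 (adjusted p = 0.0546), without the filter on low counts (adjusted p = 0.0854), and within each file set (1.67, adjusted p = 0.0694, and 2.11, adjusted p = 0.283). With the summed stromal markers as a covariate, 3 of the genes were called: Grem1, Fst (-1.11, adjusted p = 0.00317) and Bmp3 (-3.33, adjusted p = 0.0317).

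Bmp2 had 0.593, 1.00 and 4.63 CPM in CBM Hematopoietic libraries, against 0.996, 2.59 and 3.14 CPM in WT Hematopoietic libraries. A single CBM library, replicate 6, held the highest value of both groups. The log2 fold change was -0.58 (SE 0.47, adjusted p = 0.466), and it was -1.32 and 0.06 in the 2 file sets. Fst had 0.927, 3.19 and 9.87 CPM in CBM and 3.81, 6.82 and 15.3 CPM in WT Hematopoietic libraries, and differed by -0.85 on the log2 scale (SE 0.46, adjusted p = 0.248).

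Bmp4 in hematopoietic libraries had 0.292, 0.865 and 2.18 CPM in CBM, against 0.569, 2.06 and 4.22 CPM in WT, and differed by -0.94 on the log2 scale (SE 0.46, adjusted p = 0.201). Bmp3 had no counts in 3 of the 6 CBM Hematopoietic libraries and in 1 of the 6 WT Hematopoietic libraries. Its CBM values reached 4.52 CPM in replicate 5, against a median of 4.10 and a highest value of 6.25 CPM in WT, and the log2 fold change was -2.06 (SE 1.17, adjusted p = 0.280). Without CBM Hematopoietic replicate 5 it passed the test (-4.06, adjusted p = 0.0332). Bmp1 had 32.4, 47.6 and 98.2 CPM in CBM and 27.4, 40.8 and 80.4 CPM in WT Hematopoietic libraries, and the difference did not pass (0.32, SE 0.21, adjusted p = 0.350).

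The genes that were not tested there had few counts. Bmp6 had 1 to 14 counts in CBM and 0 to 17 in WT Hematopoietic libraries, Chrd had 0 to 3 in CBM and 0 to 4 in WT, and Nog had 0 to 4 in CBM and 0 to 2 in WT. All 4 Nog counts of the CBM Hematopoietic group came from replicate 1. In the fit without the filter none of the 3 passed, with log2 fold changes of -0.10 for Bmp6 (SE 0.73, adjusted p = 0.973), 0.05 for Chrd (SE 0.71, adjusted p = 0.999) and -0.16 for Nog (SE 1.04, adjusted p = 0.965).

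Between the sorted populations, most of the 9 genes were higher in mesenchymal cells. In the fit of all 24 libraries, which tested 8 of the 9, 6 were higher and 1 was lower in mesenchymal than in hematopoietic libraries of CBM cultures, against a background of 73% called (33.9% higher and 39.1% lower) over 15389 genes. In WT cultures 7 were higher and none was lower, against 73.5% called (35.4% higher and 38% lower). Bmp6 and Chrd did not pass the low-count filter in hematopoietic libraries alone and entered this fit through their mesenchymal counts. The filter thus favoured finding them higher, and their calls add little to these counts. For Bmp4, Bmp6, Bmp1, Grem1, Chrd and Fst, all mesenchymal libraries of a genotype lay above the hematopoietic libraries of the same genotype, in CBM and in WT. Their log2 fold changes ran from 2.99 (Bmp4) to 3.57 (Bmp6) in CBM and from 2.74 (Chrd) to 3.75 (Bmp6) in WT. The share of all genes without overlap between the populations was not counted, so this separation is not read as particular to these genes. Bmp3 did not pass in either genotype (0.81, adjusted p = 0.461 in CBM and 0.63, adjusted p = 0.510 in WT). Without CBM Hematopoietic replicate 5, the library with the highest Bmp3 level of its group, it passed in CBM (2.83, adjusted p = 0.0309). The deposited file names carry tags, here called culture tags, of which 5 in CBM and 4 in WT occur in both populations. No label says what a tag marks, and some shared tags lie in different file sets between the populations. Whether a tag pairs libraries is therefore not settled. With the tag as a block over those 18 libraries Bmp3 passed in both genotypes (3.59, adjusted p = 2.05e-05 in CBM and 0.95, adjusted p = 0.0158 in WT), and 8 of the 9 genes were called in each instead of 7. Nog, tested without the filter on low counts, was higher in mesenchymal libraries of WT (2.35, adjusted p = 0.0240) and did not pass in CBM (2.02, adjusted p = 0.0613).

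Bmp2 was the exception in direction. In CBM cultures it averaged 0.647 ± 0.241 CPM in mesenchymal and 1.63 ± 1.54 CPM in hematopoietic libraries (SD, n = 6 each). The log2 ratio of mesenchymal to hematopoietic was -1.28 (SE 0.43, adjusted p = 0.00991). In WT cultures it averaged 4.45 ± 1.40 CPM in mesenchymal and 2.30 ± 0.786 CPM in hematopoietic libraries, and the log2 ratio was 0.92 (SE 0.37, adjusted p = 0.0283). The libraries of the 2 populations overlapped in both genotypes. The CBM call was lost without CBM Hematopoietic replicate 6 (-0.71, adjusted p = 0.0915), and the WT call was lost without WT Hematopoietic replicate 4 or 5 or WT Mesenchymal replicate 1 or 3 (0.72 to 0.90, adjusted p = 0.0502 to 0.0741). Within the file sets it was -0.97 (adjusted p = 0.125) and -1.45 (adjusted p = 0.0606) in CBM, and 0.76 (adjusted p = 0.123) and 1.14 (adjusted p = 0.0978) in WT.

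Of the 8 genes tested for a genotype effect that differed between the populations, 1 passed, which was Bmp2. The mesenchymal minus hematopoietic difference of its log2 fold changes was -2.20 (SE 0.56, adjusted p = 0.0162), against 7.28% of all genes with such a call. With each library left out in turn it stayed between -2.39 and -1.64 and passed each time, but in neither file set alone (-1.73, adjusted p = 0.270, and -2.59, adjusted p = 0.205). For Grem1, called in both populations, the difference was 0.64 (SE 0.57, adjusted p = 0.617), and for Fst and Bmp4 it was -0.38 (SE 0.56, adjusted p = 0.796) and -0.74 (SE 0.62, adjusted p = 0.582). The SE was as large as 1.255 for Bmp3, and a missed threshold does not show equal effects in both populations.

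The genes were set against stromal RNA in the hematopoietic libraries. The median stromal marker was at 11.4% of its mesenchymal mean in CBM Hematopoietic libraries, with a range of 6.99% (Pdgfrb) to 60.5% (Lum), and at 10.8% in WT Hematopoietic libraries, with a range of 6.15% (Pdgfra) to 30.3% (Dcn). Bmp1 was at 12.02% in CBM and 11.8% in WT, Grem1 at 9.69% in CBM and 15.2% in WT, and Fst at 11.7% in CBM and 8.98% in WT. Bmp4 was at 13.1% in CBM and 7.91% in WT, and Bmp6 at 9.04% in CBM and 7.33% in WT. All 5 lay within the marker range of their genotype. Chrd, at 11.1% in CBM and 16.3% in WT, and Nog, at 26.8% in CBM and 17.03% in WT, rest on few counts.

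Bmp2 lay above the marker range in both genotypes, at 252 ± 238% in CBM and 51.7 ± 17.7% in WT Hematopoietic libraries (SD, n = 6 each). Bmp3 was at 59.2 ± 114% in CBM, within the range through Lum alone, and at 57.6 ± 42.0% in WT, above it. Lum had a mesenchymal mean of only 4.25 CPM in CBM libraries, and the next highest marker there, Dcn, was at 48.1%. In both genotypes at least 1 hematopoietic library had no Bmp3 counts.

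**Figure D4:**
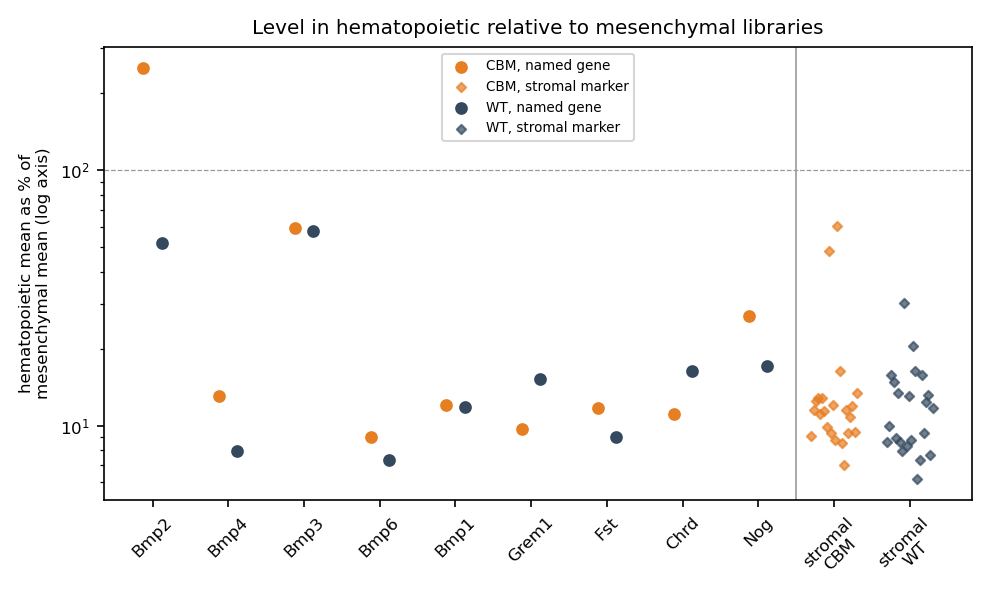
Mean hematopoietic level as a percentage of the mesenchymal mean of the same genotype (log axis) for each gene, and for the 22 stromal markers at the right; the dashed line marks 100%. Bmp2 in CBM is the point above 100%, and Bmp1, Fst, Bmp4, Bmp6 and Grem1 lie among the stromal markers.

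The other genes of the pathway were counted from lists in the same fits, where 7.27% of all genes were called in mesenchymal libraries. In mesenchymal libraries 6 of 15 other BMP, GDF and activin ligands were tested, of which 1 was higher and 3 were lower in CBM, with a median log2 fold change of -0.50 against 0.00 over all genes. Gdf6 and Bmp8a, at 0 to 18 and 2 to 36 counts per CBM library, passed the low-count filter only through their WT libraries. The filter thus favoured finding them lower, which bears on this count and median. Gdf6, a ligand of skeletal patterning, averaged 0.555 ± 0.405 CPM in CBM and 3.67 ± 2.63 CPM in WT Mesenchymal libraries (-2.75, adjusted p = 0.00562). Bmp8a averaged 1.05 ± 0.983 CPM in CBM and 4.65 ± 2.12 CPM in WT (-2.23, adjusted p = 0.0139), and its counts are uncertain because of its near-identical neighbour Bmp8b. Bmp5, named after its value was seen, averaged 33.1 ± 7.38 CPM in CBM and 57.7 ± 14.8 CPM in WT (-0.79, adjusted p = 0.0213). Inhba, which encodes the subunit of activin A, a partner of follistatin, was higher, at 808 ± 65.1 CPM in CBM and 572 ± 139 CPM in WT (0.53, adjusted p = 0.0198).

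Of 16 other antagonists and modulators, 11 were tested, 2 were higher and 1 was lower, with a median of 0.29. Chrdl1, which encodes the chordin-like antagonist ventroptin, averaged 7.34 ± 2.25 CPM in CBM and 27.9 ± 7.07 CPM in WT Mesenchymal libraries (-1.93, adjusted p = 0.000135), without overlap. Htra1, a secreted serine protease, averaged 176 ± 15.8 CPM in CBM and 112.2 ± 15 CPM in WT (0.66, adjusted p = 0.00101), also without overlap, and Nbl1, a DAN-family antagonist, averaged 36.6 ± 3.93 CPM in CBM and 28.1 ± 4.90 CPM in WT (0.39, adjusted p = 0.0344).

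Of 14 receptors and co-receptors, all tested, Bmpr1b, a type I BMP receptor, was higher (10.8 ± 3.88 CPM in CBM and 4.56 ± 2.22 CPM in WT; 1.25, adjusted p = 0.0326). Tgfbr3, the co-receptor betaglycan, was lower (194 ± 29.6 CPM in CBM and 286 ± 59.5 CPM in WT; -0.54, adjusted p = 0.00725). Of 10 Smads and Smad regulators, Skil, a SMAD corepressor, was higher (0.28, adjusted p = 0.0179) and none was lower. Of 7 tested tolloid relatives, enhancers and precursor convertases, Pcsk6, a convertase of TGF-beta family precursors, was lower (5.04 ± 1.72 CPM in CBM and 13.6 ± 8.98 CPM in WT; -1.39, adjusted p = 0.0342).

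None of the 13 BMP target genes (Id1 to Id4, Smad6, Smad7, Smad9, Bambi, Msx1, Msx2, Dlx5, Hey1 and Atoh8) passed the test in mesenchymal libraries, and their log2 fold changes had a median of -0.20. The smallest adjusted p-values were 0.0597 for Smad7 (0.31) and 0.0637 for Dlx5 (-0.48), and Id3, at 52.6 ± 9.97 CPM in CBM and 63.1 ± 8.27 CPM in WT, had a log2 fold change of -0.26 (adjusted p = 0.268). In hematopoietic libraries 11 of the 13 were tested and none passed. A p that misses the threshold does not show that these genes are alike in both genotypes.

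**Figure D5:**
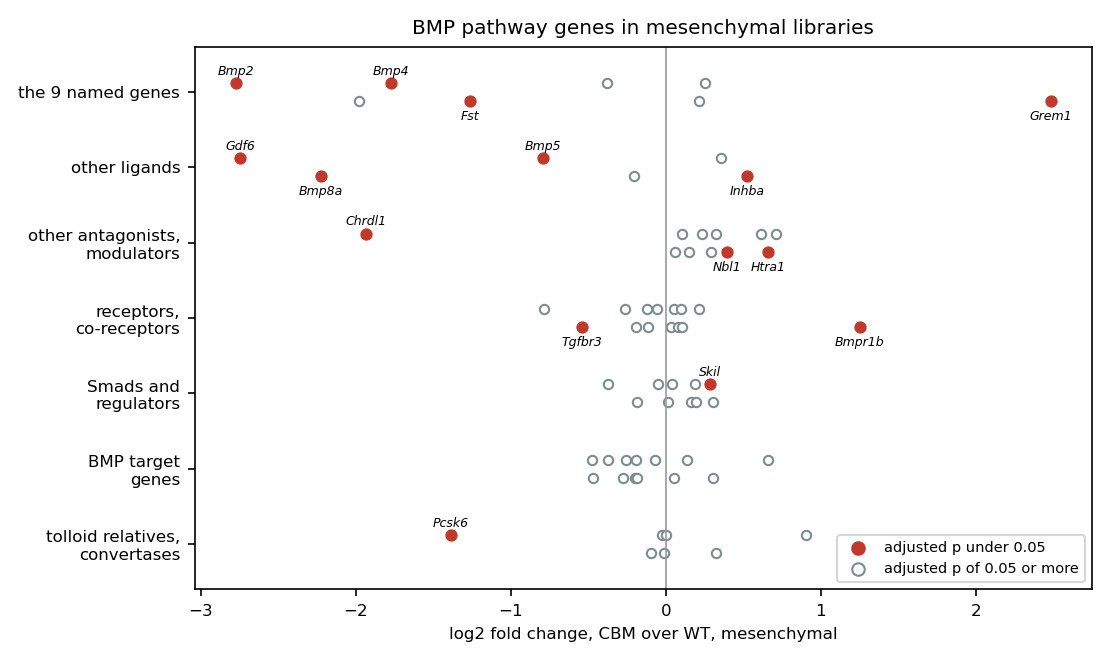
log2 fold change of CBM over WT in mesenchymal libraries for each tested gene of the pathway lists; filled and named points have an adjusted p under 0.05. The 9 named genes give 4 filled points, the other lists 11, and the BMP target genes none.

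In hematopoietic libraries, where 15.9% of all genes were called, none of 4 tested other ligands passed. Twsg1, the chordin partner twisted gastrulation, was higher at 71.0 ± 12.96 CPM in CBM and 38.7 ± 9.42 CPM in WT (0.89, adjusted p = 0.00343), and Htra1 was higher (1.64, adjusted p = 0.000238), while Crim1 was lower (-0.49, adjusted p = 0.0420), of 11 antagonists and modulators tested. Of 13 receptors, Bmpr1b was higher (1.23, adjusted p = 0.0469), and Bmpr2 (-0.20, adjusted p = 0.0467) and Rgmb (-0.39, adjusted p = 0.00681) were lower. Smad1 was lower (-0.29, adjusted p = 0.0182) of 10 Smads and regulators, and of 7 convertases and tolloid relatives Furin was higher (0.47, adjusted p = 0.0322) and Pcsk6 was lower (-3.39, adjusted p = 0.00136). In these libraries 7 of 8 osteoclast markers were higher in CBM, summing to 1668 to 4766 CPM in CBM and 261 to 1703 CPM in WT Hematopoietic libraries, with none at 0. Osteoblast lineage markers, 3 of 6 lower, summed to 108 to 254 CPM in CBM and 134 to 815 CPM in WT Hematopoietic libraries, with Bglap at 0 in both. Of 16 leukocyte markers 2 were higher and 6 were lower in CBM Hematopoietic libraries. The part of any of these marker lists in these results was not tested.

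The genes whose patterns were most like those of the 9 were found by the smallest root mean square difference of gene-centred log2 CPM over the 24 libraries, among 15388 other genes. Bmp2 was nearest to Ggt5 (0.70), Fabp4 (0.71) and Igfbp4 (0.73), and Fabp4 is also on the adipocyte marker list, where it was lower in CBM Mesenchymal libraries (-1.86, adjusted p = 0.00691). Grem1 was nearest to Gzme (0.73), Sox11 (0.78) and Fibin (0.80), Bmp4 to Sorbs2 (0.51), Trabd2b and Shroom3, and Fst to Sema5a (0.44), Omd and Angpt4. Bmp1 had the closest neighbours, Arhgap42 (0.17), Mrc2 and Zfp507, and Bmp3 the most distant, Ngef (0.96), Acan and Kcnma1. Bmp6 was nearest to Gpc6 (0.66), Ptchd4 and Magi1, and Chrd to Arvcf (0.45), Ece1 and Podn. All these genes share the libraries. The difference between the 2 populations was shared by Bmp4, Bmp6, Bmp1, Grem1, Chrd and Fst, which were higher in mesenchymal libraries of both genotypes. Between the populations Bmp3 passed in neither genotype, and Bmp2 went opposite ways in CBM and WT.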

How the data were processed

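Per the labels' protocols, rRNA-depleted total RNA (RiboGone-Mammalian) was made into libraries with the SMARTer Stranded kit and sequenced in pairs on a NextSeq. The deposited files hold raw read counts per Ensembl gene for each library. The submitters' processing notes name FastQC 0.11.7, MultiQC, HTSeq 0.9.1, DESeq2 1.20.0 and GRCm38 (mm10), with the aligner and strand setting not given in the sources used here; overlapping opposite-strand genes are therefore uncertain. IDs were named from GENCODE M21, which matched 54165.

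Genes were filtered with filterByExpr (minimum count 10, minimum total 15) and fitted with edgeR 4.0.16 (R 4.3.3; robust glmQLFit and glmQLFTest, TMM), with Benjamini-Hochberg adjustment over all tested genes and a threshold of 0.05. The genotype fits used the 12 libraries of 1 population, and the population and difference tests all 24. The deposited file names carry 1 of 2 prefixes, here called file sets, each with 3 libraries of every group; no label says what they mark, and the set is a term in each fit. CPM are TMM-scaled over all 24 libraries. The SE is the log2 fold change over the square root of F. Levels per kb use the union exon length. The scripts were tested on simulated counts. No 2 libraries of a group agreed within sampling noise. SDs cover the spread between libraries.

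All 9 genes are named. Of each list, the genes with the 3 smallest adjusted p-values may be named, and for each tested gene the 3 nearest patterns. The 9 genes and the lists were chosen with earlier results of these data known. The main fits did not pair libraries by replicate number. Not every same-numbered pair correlated above 0.1, but differently numbered pairs were not compared, so whether the numbers pair libraries was not settled.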

Additional observations from a re-analysis of the deposited data

Results flagged for a closer look

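The gap of the most extreme of 6 libraries to the others, over the range of the group (Dixon's ratio, critical value 0.625), was large in 4 of 36 gene and group combinations, where chance gives about 1 in 20. Bmp2 was lowest in 1 WT Mesenchymal library, replicate 2, at 1.72 CPM. It was highest in 1 CBM Hematopoietic library, replicate 6, at 4.63 CPM. Bmp3 was highest in CBM Hematopoietic replicate 5, at 4.52 CPM. Nog was highest in CBM Hematopoietic replicate 1, at 0.345 CPM from 4 counts, with the other 5 libraries at 0. For Bmp2 the genotype effect differed between mesenchymal and hematopoietic libraries by -2.20 on the log2 scale, in the test of that difference.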

How the results depend on the processing

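Of 1069 alternative values of the log2 fold changes of the 9 genes, 999 kept their direction and their side of the threshold, 30 no longer passed, 9 newly passed and 31 turned. In mesenchymal CBM over WT libraries, 4 of the 9 genes were called, 1 in file set 2 alone and 0 with the osteoblast lineage sum as a covariate, an alternative chosen after seeing the data, as was the endothelial one, under which Fst no longer passed (adjusted p = 0.0713). The count over all genes, 1008, was 391 in file set 1, 76 in file set 2, 1664 with DESeq2, 32 with the osteoblast lineage covariate and 646 to 1036 with each library left out, lowest without CBM Mesenchymal replicate 1. In hematopoietic libraries the count was 1 of the 9, 0 without the filter on low counts and in either file set, 3 with the stromal covariate and 0 to 2 with each library left out. Over all genes 2231 were called, 672 in file set 1 and 218 in file set 2. The test of the difference called 1 of the 9 and 0 in either file set, and over all genes 1121, 180 and 138. File sets alone hold fewer samples. For other settings the cause was not tested.

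With the replicate number as a replicate block, 3 of the 9 genes were called in mesenchymal libraries, where Fst no longer passed (adjusted p = 0.0685), and 2 in hematopoietic libraries, where Fst passed (adjusted p = 0.0197). It changed no other call among the 9. Same-numbered libraries of the 2 genotypes correlated between -0.039 and 0.336 (mesenchymal) and between 0.09 and 0.445 (hematopoietic). With the file set also removed, the correlations were 0.028 to 0.304 (mesenchymal) and 0.055 to 0.402 (hematopoietic).

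Reversed log2 values outside left-out libraries were Bmp6 in mesenchymal file set 2 (0.48), Bmp3 with the osteoblast lineage covariate (2.29) and Bmp2 in hematopoietic file set 2 (0.058). In the test of the difference they were Bmp3 without the file set term (-0.023) and in file set 2 (-0.94), Bmp1 in file set 1 (0.27), Chrd in file set 2 (-1.34) and Bmp6 with the replicate block (0.002). With each library left out, the difference ran from -0.26 to 0.16 for Bmp1, -0.33 to 2.12 for Bmp3, -0.56 to 0.42 for Bmp6, -0.10 to 0.70 for Chrd and -0.680 to 0.049 for Fst, and Bmp3 in mesenchymal over hematopoietic WT libraries from -0.15 to 1.02. None of these passed the test. Low counts limit Nog, Chrd, Bmp3 and the hematopoietic values.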

Other observations

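In the hematopoietic libraries, replicate 6 of both genotypes held the highest level of Bmp2 and of 5 of the 13 BMP target genes (Id1, Id2, Id3, Smad6 and Smad9), a pattern chosen after its values were seen. Id1 was at 8.57 CPM in CBM Hematopoietic replicate 6, against 0.296 to 1.29 CPM in the other 5 CBM libraries, and at 17.7 CPM in WT Hematopoietic replicate 6, against 1.12 to 2.46 CPM in the other 5 WT libraries. Id3 was at 20.2 CPM in that CBM library and 41.8 CPM in that WT library, and Smad6 at 119 CPM in that CBM library and 93.2 CPM in that WT library, each the highest of its group. Id2 was at 46.6 CPM in the CBM library, against at most 29.95 CPM in the other 5, and at 54.9 CPM in the WT library, against at most 36.0 CPM. Smad9 exceeded the next library by little, at 1.31 against 1.21 CPM in CBM and 2.02 against 1.89 CPM in WT. Bmp2 was at 4.63 CPM in the CBM library and 3.14 CPM in the WT library. The same 2 libraries held the lowest summed stromal markers of their groups, 3432 CPM in CBM and 3562 CPM in WT, and the highest summed endothelial markers, 41.3 CPM in CBM and 24.9 CPM in WT. Their culture tags, WT6A and HOMO6A, were the only hematopoietic tags that end in A. CBM Mesenchymal replicate 6, also tagged HOMO6A, held the highest Id1 (5.695 CPM), Id2 (5.695 CPM) and Id3 (61.3 CPM) of its group, but not the highest Bmp2, Smad6 or Smad9. The part of the tag or of either marker sum in these levels was not tested.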
